A study of Mus musculus with 2 samples.

Results

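The 9 genes described here encode steps of the β-adrenergic receptor pathway to cyclic AMP (cAMP), taken from 23946 genes with a row in either library: Adrb1 (β1-adrenergic receptor), Arrb1 and Arrb2 (β-arrestins), Gnas (stimulatory G protein α subunit), Adcy7 (adenylyl cyclase), Pde4b and Pde4d (cAMP phosphodiesterases), Crem (cAMP-responsive transcription factor) and Prkar1a (regulatory subunit of protein kinase A). They were chosen by symbol, and all 9 had a row in both libraries. CD45+ leukocytes were sorted live from digested hearts of female C57BL6 mice (wild-type C57BL/6J in the methods) 24 hours after a single i.p. injection, given to mice 8 to 16 weeks old. The TTS library came from mice given 200 mg/kg isoproterenol (ISO), a synthetic β-adrenergic agonist that models Takotsubo syndrome (TTS), and the Control library from mice given PBS vehicle. The Control label carries the same treatment note as the TTS label, so Control was identified from its title. Each library pooled 3 hearts and was loaded with 15000 cells on the 10x Chromium 3′ v3 system, which counts unique molecular identifiers (UMIs) near the 3′ end of transcripts. With 1 library per group there is no test of ISO against vehicle, and every interval below is a 95% interval that covers counting error only, not the spread between mice.

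β-Adrenergic receptors couple to the stimulatory G protein, which activates adenylyl cyclase to make cAMP. cAMP releases the catalytic subunits of protein kinase A from regulatory subunits such as Prkar1a, and the kinase acts on CREB-family transcription factors, of which Crem also yields short inducible repressors. Phosphodiesterases of the PDE4 family degrade cAMP, and β-arrestins bind agonist-occupied, phosphorylated receptors and end their coupling to the G protein. In leukocytes the pathway is known for restraining inflammatory cytokine production. The question addressed was which leukocytes hold transcripts of the receptor that ISO acts on, and what the transcripts of the pathway look like a day after the injection.

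The deposited counts were summed within cell classes set by marker genes (gates), since they carry no cell annotation. The Control library held 5641 cells with a median of 4790 UMIs after filtering, and the TTS library 5437 cells with a median of 8537 UMIs. Markers of another lineage reached 20% of that lineage's own level in 33.0% of Control and 27.9% of TTS cells, and these were left out of the gates. Ptprc, which encodes CD45, was found in every gate of at least 20 cells, between 258 and 2236 CPM (UMIs of a gene scaled to a gate total of 1000000). The 14 gates held 3614 and 3854 cells, and 15 barcodes occurred in both libraries. Gate sizes differed widely: resident macrophages numbered 654 in Control and 272 in TTS, Ccr2 macrophages 96 and 739, classical monocytes 74 and 2118, and B cells 1810 and 21. The cells within a gate differed as well. Ly6c2, a classical monocyte marker, was at 1253 CPM in the Control classical monocyte gate and 338 CPM in TTS, while Arg1 (arginase 1) was at 0 CPM and 707 CPM. The Control gate held no Arg1 UMI among 664564. A difference within a gate may therefore be a difference between the cells that fell into it, and fewer cells of a kind and less RNA per cell cannot be told apart.

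Positions are given in the GRCm38 (mm10) build with the GENCODE M21 annotation. Adrb1 lies on chr19:56722199-56733113 (+), Arrb1 on chr7:99535466-99606771 (+), Arrb2 on chr11:70432635-70440828 (+), Gnas on chr2:174284320-174346744 (+) and Adcy7 on chr8:88272403-88329962 (+). Pde4b lies on chr4:102087543-102607259 (+), Pde4d on chr13:108449948-109953461 (+) and Prkar1a on chr11:109649405-109669656 (+). Gnas shares its 3′ part with the protein-coding gene Gm20721 on the opposite strand (chr2:174330319-174346712), which had 6 UMIs in Control and 2 in TTS. Crem overlaps the opposite-strand transcript Gm6225, which had 437 and 331 UMIs. The strand setting of the counting is not given in the sources used here, so the levels of Gnas and Crem are uncertain to that extent. Pde4d contains the same-strand processed pseudogene Rps3a3 (chr13:108670603-108671397), which had 1049 UMIs in Control and 567 in TTS. It also contains the microRNA gene Mir1904, with 9 and 3 UMIs. How reads in these stretches were assigned is not given either, so the level of Pde4d is uncertain to that extent.

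Promoter windows of RefSeq transcripts (GRCm38.p6, 250 bases before to 50 after a start) are shown for the receptor, for the member with the largest differences between the libraries, and for the member that holds the full cAMP response element. The letters TGACG, the core of that element, were searched on both strands and are in capitals. The full palindrome TGACGTCA contains TGACG on both strands, and the overlapping matches are capitalised together.
Adrb1 promoter, chr19:56721867-56722166 (+): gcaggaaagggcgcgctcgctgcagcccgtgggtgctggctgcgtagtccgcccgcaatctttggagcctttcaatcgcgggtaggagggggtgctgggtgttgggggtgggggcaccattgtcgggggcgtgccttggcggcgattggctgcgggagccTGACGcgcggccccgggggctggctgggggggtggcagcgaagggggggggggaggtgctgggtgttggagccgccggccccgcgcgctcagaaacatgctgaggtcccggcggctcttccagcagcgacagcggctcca
Pde4d promoter, chr13:108653927-108654226 (+): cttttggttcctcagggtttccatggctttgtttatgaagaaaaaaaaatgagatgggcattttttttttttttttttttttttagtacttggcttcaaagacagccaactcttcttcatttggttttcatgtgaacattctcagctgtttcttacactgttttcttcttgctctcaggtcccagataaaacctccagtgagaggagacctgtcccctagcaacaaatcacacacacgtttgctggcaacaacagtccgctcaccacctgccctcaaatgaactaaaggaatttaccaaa
Prkar1a promoter, chr11:109650699-109650998 (+): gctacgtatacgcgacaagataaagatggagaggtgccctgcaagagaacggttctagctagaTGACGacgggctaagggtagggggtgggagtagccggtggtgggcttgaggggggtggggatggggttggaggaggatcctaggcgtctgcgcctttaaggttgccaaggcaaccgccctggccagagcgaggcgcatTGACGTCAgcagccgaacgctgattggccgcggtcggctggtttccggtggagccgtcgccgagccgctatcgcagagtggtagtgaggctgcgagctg

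The windows of Adrb1 and Prkar1a held TGACG, and the Prkar1a window held the full TGACGTCA. The Pde4d window held neither. It was the only Pde4d window and lies inside the annotated gene, so any other start of Pde4d was not searched. Among all 32851 promoter windows, 20.8% held TGACG and 1.79% held TGACGTCA. Of the 19 windows that matched 6 of the members, 9 held TGACG, in 5 genes (Adcy7, Adrb1, Gnas, Pde4b and Prkar1a). Some windows of Gnas and of Prkar1a overlap and hold the same site, so sites were counted more than once. The count of 9 is therefore not to be set against the share of all windows. TGACGTCA was in 2 member windows, which are overlapping windows of Prkar1a. Such a match describes the letters only. The window table had no entry for Arrb1, Arrb2 or Crem.

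Adrb1, the β1 receptor that ISO activates in cardiomyocytes, was a rare transcript with 370 UMIs in the Control file and 84 in the TTS file. Its level over all kept cells was 7.75 CPM in Control (interval 6.93 to 8.65) and 1.44 CPM in TTS (1.14 to 1.80). Macrophages held most of what could be gated: 100 of 128 gated Adrb1 UMIs in Control (78.1%) and 22 of 32 in TTS (68.8%) fell in the 3 macrophage gates. Another 195 Control and 48 TTS UMIs were in barcodes with markers of 2 lineages.

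Among Control gates, Adrb1 was at 16.2 CPM (6.99 to 31.9) in nonclassical monocytes and 15.4 CPM (from 16 UMIs) in other macrophages. The other macrophages are those with fewer than 2 resident markers and no Ccr2 UMI. Resident macrophages held 13.7 CPM (10.8 to 17.2), Ccr2 macrophages 11.0 CPM (4.76 to 21.7) and NK cells 10.3 CPM (4.14 to 21.2). These 5 gates could not be ordered, because their intervals overlapped. T cells followed at 5.78 CPM from 6 UMIs, type 1 dendritic cells (DCs) at 3.83 CPM from 4 UMIs, and ILC2 (group 2 innate lymphoid cells) and type 2 DCs held 1 UMI each. B cells, the largest Control gate, held 1 Adrb1 UMI among 6788876, or 0.147 CPM (0.00373 to 0.821), a level whose interval lay below those of the macrophage gates. Neutrophils and classical monocytes held none, which allows up to 8.37 and 4.51 CPM. After thinning every cell to 1000 UMIs, 1.68% of Control resident macrophages (0.843% to 2.99%) and 0.0553% of B cells had an Adrb1 UMI, against 10.1% and 0.0552% without thinning at median depths of 6757.5 and 3239.5 UMIs. B cell barcodes are no measure of RNA carried over into macrophage barcodes, since they held less cardiomyocyte RNA, as given below.

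In TTS the receptor transcript was lower in resident macrophages, at 5.20 CPM (2.97 to 8.45; 16 UMIs) against 13.7 CPM (76 UMIs), a log2 ratio of -1.37 (-2.28 to -0.61) or 2.58-fold. A difference was called when it reached 2-fold with at least 20 UMIs over both libraries, and 11.0% of 11017 genes were called lower and 7.74% higher in that gate. The lower Adrb1 level thus stands among many such genes. With each cell thinned to 1000 UMIs only 11 Control and 4 TTS resident cells kept an Adrb1 UMI (1.68% and 1.47%), and the log2 ratio was -0.09. With barcodes of 2 lineages kept it was -0.73, and as a mean over cells -0.98. Ccr2 macrophages held 8 Control and 5 TTS UMIs (11.0 and 0.749 CPM), other macrophages 16 and 1 (15.4 and 1.48 CPM) and nonclassical monocytes 8 and 1 (16.2 and 2.77 CPM), too few for a call. Over the 3 macrophage gates together Adrb1 stood at 13.7 CPM in Control (interval 11.2 to 16.7) and 2.11 CPM in TTS (1.32 to 3.19), a log2 ratio of -2.67 (-3.44 to -2.02), a value that also reflects the different mix of gates. The classical monocytes, the largest TTS gate, held 4 Adrb1 UMIs among 20124593, or 0.199 CPM (0.0542 to 0.509).

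Cardiomyocytes express Adrb1, and cardiomyocyte transcripts in the same barcodes were measured beside these levels. All 7 listed genes were found in the Control macrophage gates, and they summed to 173 CPM in Control and 98.8 CPM in TTS resident macrophages, 99.3 and 47.9 CPM in Ccr2 macrophages, 197 and 155 CPM in other macrophages, and 21.8 CPM in Control B cells. Over all gates with at least 20 cells in both libraries the list reached its highest Control sum in neutrophils (234 CPM), which held no Adrb1 UMI. In TTS nonclassical monocytes it reached 646 CPM beside 1 Adrb1 UMI. The list thus fell together with Adrb1 in the macrophage gates, and its part in the Adrb1 difference was not tested.

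**Figure D1:**
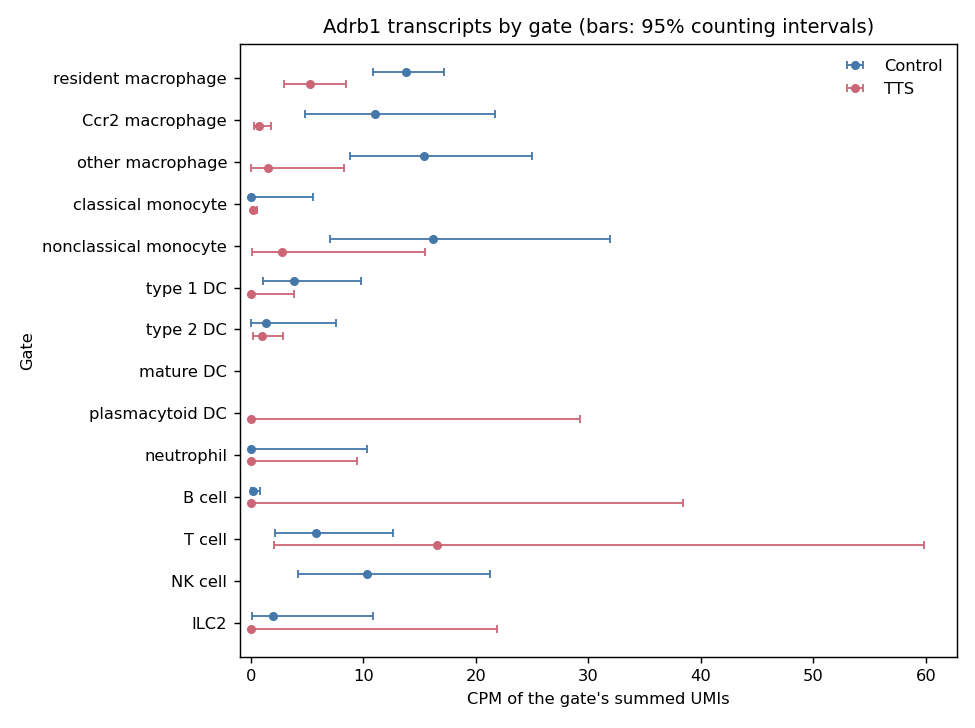
Level of Adrb1 (CPM of the UMIs summed over a gate, linear axis) in each gate with at least 20 cells, in Control (blue) and TTS (red). Points are levels and bars are 95% counting intervals; Adrb1 in resident macrophages lies at 13.7 CPM in Control and 5.20 CPM in TTS.

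Among further adrenergic receptors, Adra2b had 9 UMIs in TTS Ccr2 macrophages and 23 in TTS classical monocytes, Adra1a, Adra1b, Adra1d, Adra2a and Adra2c had at most 1 in any gate, and Adrb3 had no row.

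Across the 11 gates with at least 20 cells in both libraries, 84 of 99 pairs of a member and a gate had enough UMIs for a ratio. Of these, 5 were at least 2-fold higher in TTS and 7 at least 2-fold lower, while 12 intervals lay above 0 and 27 below. All 5 higher pairs were Pde4d. In resident macrophages 1 of 9 members was higher and 1 lower. Among Ccr2 macrophages 1 of 8 was higher and none lower, where 12.8% and 17.0% of all genes were. For other macrophages 1 of 8 was higher and 3 lower, against 11.2% and 16.2% of genes, the gate with the most members called lower. Classical monocytes had 1 of 8 higher and 1 lower, against 11.3% and 20.9%. In nonclassical monocytes none of 6 was higher and 1 was lower, against 10.7% and 12.2%. The DC gates had no member called in either direction: 8.41% of genes were higher and 8.95% lower in type 1 DCs (7 members), and 7.89% and 11.4% in type 2 DCs (8 members). Neutrophils had 1 of 7 higher and none lower, against 18.6% and 13.8%. B cells (8 members, 21 cells in TTS) had none, against 17.3% and 14.0%, and T cells had none of 8 higher and 1 lower, against 14.6% and 12.4%. ILC2 had none of 7, against 8.92% and 7.59%. Other macrophages, with Arrb1, Arrb2 and Adcy7 lower, were above their share of all genes, but with barcodes of 2 lineages kept none of these 3 ratios reached 2-fold (-0.52, -0.66 and -0.79). In every other gate at most 1 member was called in either direction, so the counts by gate are not a result about the members. The median log2 ratio of the members was -0.31 in resident macrophages, -0.30 in Ccr2 macrophages, -0.44 in other macrophages and -0.10 in classical monocytes, beside -0.06, -0.10, -0.05 and -0.25 for all genes with enough UMIs.

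Scaling by trimmed mean of M-values (TMM) in place of the UMI total used log2 factors of TTS over Control that were furthest from 0 in classical monocytes (-0.37), Ccr2 macrophages (-0.31), T cells (0.30), type 2 DCs (-0.21), ILC2 (0.17) and B cells (0.15). A negative factor raises every ratio of its gate by that amount and a positive factor lowers it, which is stated below where it turned a direction.

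**Figure D2:**
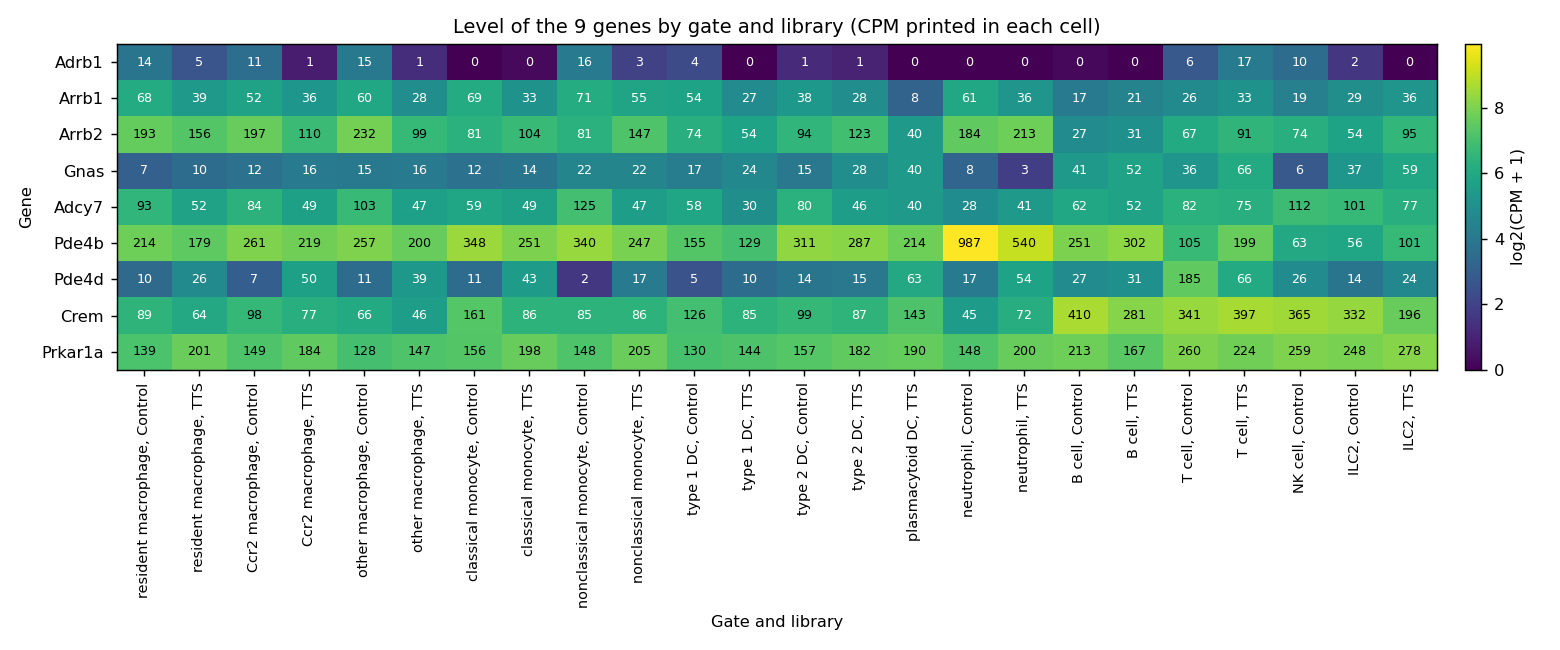
Levels of the 9 genes (rows) in each gate and library with at least 20 cells (columns), as CPM printed in the cells and as log2(CPM + 1) in colour. Levels compare along a row and not between genes, since 3′ counts are not scaled per length; Pde4b peaks in Control neutrophils, Pde4d in Control T cells and Crem in the lymphocyte gates.

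Pde4d, a cAMP phosphodiesterase, was the only member called higher in TTS. Among Control gates it was highest in T cells, at 185 CPM (160 to 213, from 192 UMIs), with an interval above that of every other gate. The next were B cells at 27.0 CPM and NK cells at 26.5 CPM. The gates held only 499 of the 1434 Pde4d UMIs in kept Control cells, and 1412 of 2276 in TTS. Over all kept cells Pde4d was at 34.4 CPM in Control (32.7 to 36.3) and 41.1 CPM in TTS (39.4 to 42.8). The myeloid gates lay between 2.02 and 16.7 CPM in Control. In TTS, resident macrophages reached 26.0 CPM (20.6 to 32.4) from 9.76 CPM (7.33 to 12.7), a log2 ratio of 1.41 (0.90 to 1.94). Ccr2 macrophages reached 49.7 CPM (44.5 to 55.4; 332 UMIs) from 6.89 CPM (5 UMIs), a log2 ratio of 2.72 (1.61 to 4.48). Classical monocytes reached 43.0 CPM (865 UMIs) from 10.5 CPM (7 UMIs), with 1.93 (0.98 to 3.35). These myeloid gates shared the direction, as did smaller ones. Other macrophages went from 10.6 to 38.5 CPM (1.83, 0.80 to 3.03) and neutrophils from 16.7 to 53.8 CPM (1.603, 0.33 to 3.28; 6 and 21 UMIs), where the ratio was -0.050 with cells thinned to 1000 UMIs. Type 2 DCs held 13.6 and 15.0 CPM (0.09, -0.86 to 1.30; 10 and 46 UMIs), with no stable sign (-0.96 after thinning). Thinned ratios rest on fewer UMIs than these sums, so those of neutrophils and type 2 DCs are uncertain. T cells went the other way, to 66.2 CPM (28.6 to 130) from 8 UMIs in 24 cells (-1.40, -2.71 to -0.47).

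The Pde4d difference in resident macrophages depended on leaving out barcodes with markers of 2 lineages: with them the log2 ratio was -0.14, against 1.15 in Ccr2 macrophages, 0.30 in other macrophages and 1.44 in classical monocytes. With the limit for another lineage's markers at 40% in place of 20% it was 0.82 in resident macrophages. The T cell gate, the richest in Pde4d, held 187 cells in Control and 24 in TTS.

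Within TTS, Pde4d went with Arg1, a split chosen after the values were seen. Cells with an Arg1 UMI held 72.5 CPM of Pde4d (64.1 to 81.7) and cells without it 21.7 CPM (16.8 to 27.7) among Ccr2 macrophages, a log2 ratio of 1.73 (1.34 to 2.15). Classical monocytes showed 61.2 CPM (56.7 to 66.0) and 20.1 CPM (17.3 to 23.3), a 3.03-fold difference (log2 interval 1.36 to 1.85). Resident macrophages showed 42.5 CPM (32.7 to 54.2) in 91 cells with Arg1 and 10.2 CPM (5.83 to 16.6) in 181 cells without, a log2 ratio of 2.03 (1.25 to 2.95). The resident cells without Arg1 thus lay at the level of Control resident macrophages (9.76 CPM), with overlapping intervals. Among 8 members with enough UMIs, Pde4d was the only one at least 2-fold higher in Ccr2 macrophages and classical monocytes, where 1.24% and 2.06% of all genes were. In resident macrophages 2 of 8 were, Pde4d and Gnas (15.9 CPM from 24 UMIs against 5.10 CPM from 8), where 2.17% of all genes were. The cells with Arg1 were deeper, at medians of 15106 and 6718 UMIs in resident macrophages. The medians were 9052 and 7605 in Ccr2 macrophages and 9433 and 7381 in classical monocytes. The part of depth was not tested. Macrophages, monocytes and DCs counted as the same lineage, so the lineage limit did not leave out barcodes shared by such cells. The part of such barcodes was not tested either.

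**Figure D3:**
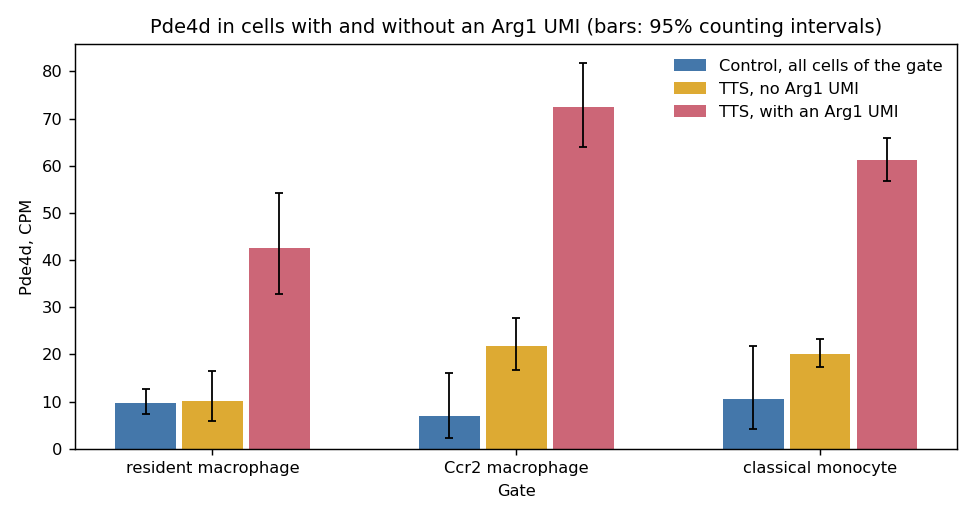
Pde4d level (CPM, linear axis from 0) in Control cells (blue), TTS cells without an Arg1 UMI (yellow) and TTS cells with an Arg1 UMI (red) of 3 gates. Bars are levels of summed UMIs with 95% counting intervals; TTS cells with Arg1 stand at 42.5, 72.5 and 61.2 CPM and those without at 10.2, 21.7 and 20.1 CPM.

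Pde4b, the PDE4 form best known from leukocytes, did not share the pattern of Pde4d. It was highest in neutrophils, at 987 CPM in Control and 540.5 CPM in TTS (log2 ratio -0.87, -1.12 to -0.62), and in Control the neutrophil interval lay above that of every other gate. Classical monocytes followed at 348 CPM in Control and 251 CPM in TTS (-0.47, -0.66 to -0.27), and resident macrophages held 214 and 179 CPM (-0.26, -0.41 to -0.11). Its ratio was below 0 in 8 of 11 gates, all myeloid, and the sign held under every alternative in resident macrophages, classical monocytes and neutrophils. It turned under TMM scaling in Ccr2 macrophages (0.06) and type 2 DCs (0.09), with cells thinned to 1000 UMIs in other macrophages (0.21), type 1 DCs (0.41) and type 2 DCs (0.46), and with barcodes of 2 lineages kept in nonclassical monocytes (0.06). T cells went from 105 to 199 CPM (0.94, 0.22 to 1.57), opposite to their Pde4d. The log2 ratios of Pde4d and Pde4b had opposite signs in classical monocytes under all 13 alternatives to the processing, and in T cells under those that left enough cells for a ratio (all but a limit of 10% for another lineage's markers). They also did as reported in the other myeloid gates with enough UMIs, but shared a sign in each under at least 1 alternative, such as in resident macrophages with barcodes of 2 lineages kept (-0.14 and -0.08) and after thinning in other macrophages (3.72 and 0.21) and neutrophils (-0.050 and -0.59). The thinned Pde4d values rest on at most 11 Control UMIs in other macrophages and 6 in neutrophils. Other cells' markers differed in the neutrophil gate too: 6 fibroblast genes summed to 2463 CPM in Control and 346 CPM in TTS, and 5 endothelial genes to 109 and 815 CPM. Their part in the neutrophil values was not tested.

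Adcy7, the adenylyl cyclase commonly found in haematopoietic cells, was lower in TTS macrophages. Resident macrophages went from 92.7 to 51.7 CPM (log2 ratio -0.84, -1.11 to -0.58), Ccr2 macrophages from 84.1 to 48.8 CPM (-0.79, -1.18 to -0.37) and other macrophages from 103 to 47.4 CPM (-1.10, -1.74 to -0.54). After thinning, resident macrophages were at -1.64 and other macrophages at -0.88. Nonclassical monocytes went from 125 CPM (62 UMIs) to 47.2 CPM (17 UMIs), a log2 ratio of -1.38 (-2.28 to -0.62) that was -0.46 with cells thinned to 1000 UMIs and no longer 2-fold. Their Control level ranked first, with an interval that overlapped that of NK cells (112 CPM). Both DC gates were lower too, by ratios of -0.94 (-1.65 to -0.30) and -0.82 (-1.26 to -0.35). In all, 6 of 11 intervals lay below 0 and none above. The fibroblast genes summed to 1730.5 CPM in Control and 215 CPM in TTS other macrophages, beside 193 and 270.2 CPM in resident macrophages, and their part in the ratios of these gates was not tested. Classical monocytes had 58.7 and 49.0 CPM of Adcy7 (-0.28, -0.72 to 0.24), a sign that turned under TMM scaling (0.09).

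Gnas, the G protein α subunit between receptor and cyclase, had few UMIs, and its level is uncertain because of the overlap given above. It was at 7.23 CPM in Control and 10.4 CPM in TTS resident macrophages (0.53, -0.19 to 1.23) and 41.1 and 52.1 CPM in B cells. All 9 ratios were above 0, from 0.09 to 0.96, and only that of type 2 DCs, 14.9 against 28.4 CPM (0.87, 0.02 to 1.98), had an interval above 0. The signs were not stable: with barcodes of 2 lineages kept the ratio was -0.19 in resident macrophages, -0.25 in Ccr2 macrophages, -0.10 in classical monocytes and -0.04 in type 1 DCs and ILC2. As a mean over cells it was -0.46 in classical monocytes, and after thinning -2.72 there and -1.82 in ILC2. The thinned values rest on at most 8 Control UMIs in classical monocytes and 19 in ILC2, so they are uncertain themselves. No direction is drawn for Gnas.

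Of the β-arrestins, Arrb1 was lower in TTS in the myeloid gates. It went from 67.8 to 39.3 CPM in resident macrophages (log2 ratio -0.78, -1.09 to -0.49), from 59.6 to 28.1 CPM in other macrophages (-1.06, -1.91 to -0.32) and from 69.2 to 33.0 CPM in classical monocytes (-1.08, -1.50 to -0.60). The last was -0.71 under TMM scaling and no longer 2-fold, and other macrophages were at -0.52 with barcodes of 2 lineages kept. Type 1 DCs showed 53.7 and 27.0 CPM (-0.98, -1.72 to -0.30). All 8 myeloid gates had a ratio below 0, with 5 intervals below 0, though after thinning that of nonclassical monocytes was 0.33.

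Arrb2 divided the gates. In Control it was at 193 to 232 CPM in the macrophage gates and at 184 CPM in neutrophils, 4 gates whose intervals overlapped, and type 2 DCs came next at 93.6 CPM with an interval below theirs. In TTS it was lower in resident (156 CPM; log2 ratio -0.31, -0.46 to -0.15), Ccr2 (197 to 110 CPM; -0.84, -1.10 to -0.57) and other macrophages (232 to 99.2 CPM; -1.22, -1.64 to -0.83). It was higher in nonclassical monocytes, 147 against 80.9 CPM (0.86, 0.24 to 1.49), and in type 2 DCs, 123 against 93.6 CPM (0.38, 0.02 to 0.78). Classical monocytes had 81.3 and 104 CPM (0.34, -0.04 to 0.77). With barcodes of 2 lineages kept the lower level in resident macrophages was gone (0.00) and other macrophages were at -0.66, and with marker scores scaled within each library type 2 DCs were at -0.31.

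Crem, which encodes activators and repressors that bind the cAMP response element, lies on chr18:3266048-3337748 (−) and was a lymphocyte transcript in these hearts. B cells held 410 CPM (395 to 426) in Control, NK cells 365 CPM, T cells 341 CPM and ILC2 332 CPM, and the intervals of these 4 lay above those of all myeloid gates, the highest of which was classical monocytes at 161 CPM. In TTS no gate reached a 2-fold difference as reported, but with barcodes of 2 lineages kept Crem was over 2-fold lower in resident macrophages (-1.01), other macrophages (-1.03), classical monocytes (-1.15) and B cells (-1.12). Resident macrophages went from 88.8 to 64.0 CPM (log2 ratio -0.47, -0.72 to -0.23), classical monocytes from 161 to 85.8 CPM (-0.91, -1.19 to -0.61, and -0.55 under TMM scaling), type 1 DCs from 126 to 85.2 CPM (-0.56, -0.98 to -0.15) and ILC2 from 332 to 196 CPM (-0.74, -1.35 to -0.22). Over all kept cells Crem was at 221 CPM in Control and 89.0 CPM in TTS, beside B cell gates of 1810 and 21 cells. Across the gates, 5 intervals lay below 0 and none above. The ratios above 0 turned with barcodes of 2 lineages kept, in T cells from 0.23 to -0.79, in neutrophils from 0.67 to -0.54 and in nonclassical monocytes from 0.02 to -0.88. TMM scaling turned T cells (-0.06) and type 2 DCs (from -0.20 to 0.01), and thinning turned other macrophages (0.66) and type 1 DCs (0.82). The counts do not separate the short repressor forms from the other transcripts of the gene.

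Prkar1a, which holds protein kinase A inactive until cAMP binds, varied least across gates, between 128 and 260 CPM in Control. It was modestly higher in TTS in resident macrophages, 201 against 139 CPM (log2 ratio 0.53, 0.38 to 0.69), in classical monocytes, 198 against 156 CPM (0.33, 0.06 to 0.64), and in Ccr2 macrophages, 184 against 149 CPM (0.30, 0.02 to 0.60). The other 8 intervals held 0. No gate reached 2-fold as reported, but with cells thinned to 1000 UMIs the ratio was 1.66 in classical monocytes, 1.15 in Ccr2 macrophages and 0.18 in resident macrophages. The Control gates of classical monocytes and Ccr2 macrophages held only 74 and 96 cells, so their thinned values rest on few UMIs and are uncertain.

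**Figure D4:**
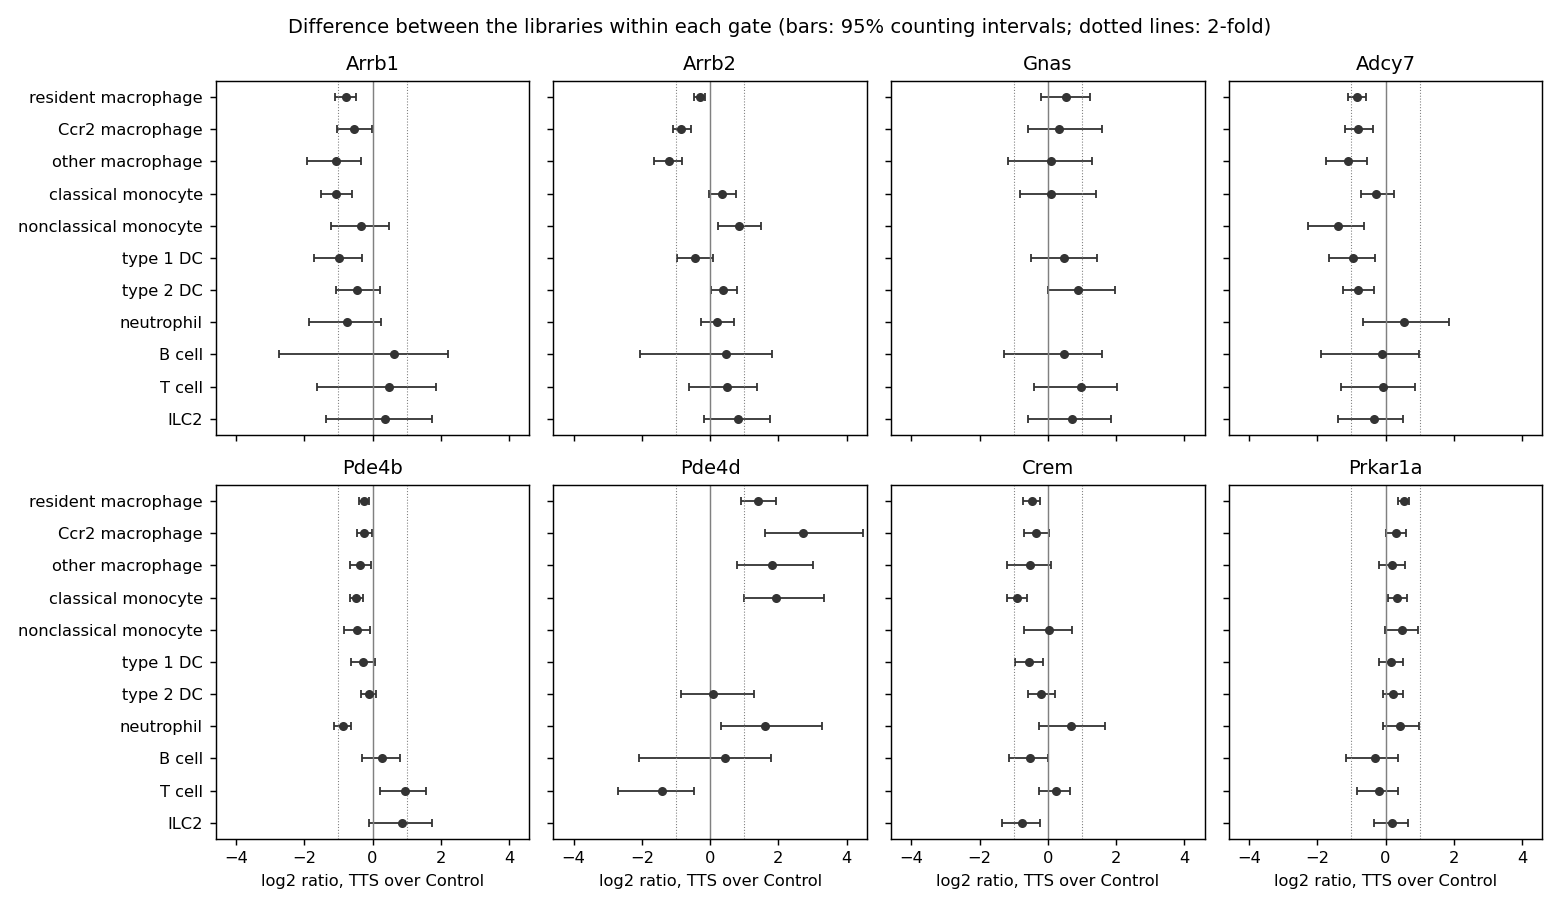
Log2 ratio of TTS over Control for 8 of the genes in each gate with at least 20 UMIs over both libraries (points) with 95% counting intervals (bars); dotted lines mark 2-fold and the solid line no difference. With levels scaled to UMI totals, Pde4d lies right of 1 in 5 myeloid gates and left of -1 in T cells, while Arrb1, Adcy7 and Pde4b lie mostly left of 0 in myeloid gates; Adrb1, with a ratio in resident macrophages only, is not drawn.

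The remaining genes of the pathway were taken from lists of receptors, enzymes and targets and counted in the same way. Their ratios were not recomputed under the alternatives used for the members, apart from TMM scaling in Ccr2 macrophages. Their counts are to be read against the shares of all genes called higher and lower, which were 7.74% and 11.0% in resident, 12.8% and 17.0% in Ccr2 and 11.2% and 16.2% in other macrophages. Other receptors that couple to the stimulatory G protein diverged. The adenosine receptor Adora2b was higher in TTS in all 3 macrophage gates, from 7.59 to 60.8 CPM in resident (log2 ratio 2.99), from 19.3 to 114 CPM in Ccr2 (2.51) and from 1 to 57 UMIs in other macrophages. The prostaglandin receptor Ptger2 went from 2 to 97 UMIs in Ccr2 macrophages (2.08), and Adora2a from 5.79 to 11.7 CPM in resident macrophages (1.01). In contrast the prostaglandin receptor Ptger4 was lower in all 3, from 95.5 to 38.0 CPM in resident macrophages (-1.32), as were Ptgir in resident macrophages (-1.11), Ramp1 in Ccr2 (-2.19) and other macrophages (-1.76) and Calcrl in Ccr2 macrophages (-1.24). Of 9 such receptors, 8 had enough UMIs in resident macrophages, with 3 higher and 2 lower and a median of 0.06 beside -0.06 for all genes. Adora2b and Adrb1 differed in direction in that gate, but the Adrb1 ratio ranged from -1.62 to -0.09 under the alternatives. Whether these differences are related was not tested.

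Some further phosphodiesterases were lower in the macrophage gates. Pde3b fell by 1.68 on the log2 scale in resident, 2.50 in Ccr2 and 2.37 in other macrophages, and the log2 ratio of Pde7a was -1.26 in resident and -2.10 in Ccr2 macrophages. Pde4a and Pde7b were also lower in Ccr2 macrophages (-1.79 and -1.51). In that gate 5 of 7 listed phosphodiesterases with enough UMIs were called lower, where 17.0% of all genes were, and none higher. Their median was -1.70 beside -0.10 for all genes. The list leaves out the members Pde4b and Pde4d. In Ccr2 macrophages Pde4d was called higher (2.72) and Pde4b was within 2-fold (-0.25). Pde4d was also called higher in resident and other macrophages, classical monocytes and neutrophils, as given above. Of the listed genes, 2 of 8 were called lower in resident macrophages, where 11.0% of all genes were. Classical monocytes had 3 of 8 lower and 1 higher (Pde8a, 1.65), against 20.9% and 11.3% of all genes, and neutrophils neither of 2. The cyclase Adcy9 was lower in resident macrophages, 25.5 against 9.75 CPM (-1.37).

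Protein kinase A and its anchors were mostly within 2-fold in resident and Ccr2 macrophages. Resident macrophages had 1 of 14 lower (Prkar1b, -1.14), where 11.0% of all genes were. Ccr2 macrophages had 1 of 13 lower (the catalytic subunit Prkacb, -1.09) and 1 higher (the inhibitor Pkib, 1.64), against 17.0% and 12.8% of all genes. Other macrophages had 6 of 10 lower, against 16.2% of all genes, among them Prkaca (-1.11), Prkacb (-1.76), Pkig (-1.18) and Akap8 (-1.44). Of the G protein subunits, Gng12 was higher in all 3 macrophage gates (1.08, 2.29 and 1.75) and Gng5 in Ccr2 macrophages (1.24). The receptor kinase gene Adrbk2 was lower in Ccr2 macrophages (-1.78), as were the CREB coactivators Crtc2 (-1.23) and Ep300 (-1.10, and -1.43 in other macrophages). The cAMP-activated exchange factors and their Rap targets had no call in any gate. Under TMM scaling, which raises the ratios of the Ccr2 macrophage gate, those of Calcrl, Prkacb, Crtc2, Ep300, Per1, Irs2 and Nr4a3 there do not reach 2-fold.

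Genes known to be induced through CREB did not move together. Of 22 such genes, resident macrophages had 2 higher and 2 lower (median -0.39 beside -0.06 for all genes), Ccr2 macrophages 1 and 5 (-0.42 beside -0.10), other macrophages 6 and 1 (0.10 beside -0.05) and classical monocytes 4 and 5 (-0.41 beside -0.25). Thbs1, which encodes thrombospondin 1, was higher in resident (50.3 to 805 CPM), Ccr2 (432 to 1459 CPM) and other macrophages (21.2 to 1322 CPM). Platelets hold this transcript too, and the sum of 3 platelet genes (Ppbp, Itga2b and Gp9) was higher in the same gates, from 19.7 to 182 CPM in resident, 5.51 to 21.9 CPM in Ccr2 and 4.81 to 47.4 CPM in other macrophages. Ppbp gave nearly all of these UMIs, Itga2b had at most 5 in any macrophage gate and Gp9 had none. Their part in the Thbs1 values was not tested. Rgs1 was higher in resident macrophages (1.43), and Areg (2.97), Nr4a2 (2.15), Nfil3 (1.39), Gem (1.37) and Cebpb (1.31) in other macrophages. The immediate early gene Fosb was lower in all 3 macrophage gates (-1.83, -1.53 and -1.66). Egr1 was lower in resident and Ccr2 macrophages (-1.12 and -1.74), and Nr4a3 (-1.14), Per1 (-1.02) and Irs2 (-1.03) in Ccr2 macrophages. Fos, Fosb, Junb and Egr1 are also on a list of 14 genes induced by tissue dissociation, and that list had medians of -0.58, -0.79 and -0.42 in the resident, Ccr2 and other macrophage gates. On that list Hspa1b (-1.71, -2.75 and -2.91) was lower in all 3 gates, Hspa1a (-1.53 and -1.93) and Dnajb1 (-2.16 and -1.03) in Ccr2 and other macrophages, Jund (-1.31) in Ccr2 macrophages, and Ier3 was higher in Ccr2 and other macrophages (1.84 and 1.92). Fosb and Egr1 thus moved with the dissociation genes, and the part of dissociation in them was not tested.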

How the data were processed

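The authors processed reads with UMI-tools 1.0.0, aligned them to mm10 with STAR 2.7.3a and counted them per gene with featureCounts 1.6.4. The annotation version and strand setting are not given in the sources used here. The deposited tables hold raw UMI counts per gene and barcode, with 47382455 UMIs in Control and 58495112 in TTS.

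Cells with over 500 and under 6000 genes and under 25% mitochondrial UMIs were kept, as in the study, which left 5641 of 5927 and 5437 of 5514 barcodes, the cell counts that the study states. Each cell went to the class with the highest score of its markers, scaled over both libraries, with at least 3 markers found. No doublet caller was run. Barcodes at or above 20% of another lineage's marker level were left out instead (346 Control and 495 TTS cells lay at 10% to 20%, and 676 and 464 at 20% to 40%). A cell with 2 of the resident markers was a resident macrophage, and a remaining macrophage with 1 Ccr2 UMI a Ccr2 macrophage. Barcodes of no class numbered 168 and 68.

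UMIs were summed per gate and given as CPM with exact Poisson intervals. Ratios had 0.5 UMI added and exact conditional binomial intervals, and shares of cells had exact Clopper-Pearson intervals. A count of 0 was given a limit of 3 counts. The ratio, its interval and the 2-fold call were tested first on counts simulated at the Control levels of resident macrophages. The other steps were not tested on simulated counts. The members, markers and gene lists were chosen with earlier results of these data known. The text names the 9 members, the listed receptors, list genes past 2-fold in a macrophage gate with at least 50 UMIs, and for Adrb1, Crem and Pde4b the 5 genes of the most similar pattern, except for items that are not reported here. Of 107 list genes, 104 had a row. Alternatives covered the cell filter, the lineage limit, scaling, the added UMI, the UMI minimum and thinning. Python 3.11.15, numpy 2.4.6, scipy 1.17.1, pandas 2.3.3 and matplotlib 3.10.9 were used.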

Additional observations from a re-analysis of the deposited data

Results flagged for a closer look

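Pde4d moved one way in the myeloid gates and the other way in T cells. Its log2 ratio of TTS over Control was 1.41 in resident macrophages, 2.72 in Ccr2 macrophages, 1.83 in other macrophages, 1.93 in classical monocytes and 1.603 in neutrophils, against -1.40 in T cells. It was -0.14 in resident macrophages with barcodes of 2 lineages kept and -0.050 in neutrophils with cells thinned to 1000 UMIs. With 1 library per group this difference between gates was not tested, and the TTS T cell value rests on 8 UMIs in 24 cells.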

How the results depend on the processing

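The ratios of the members, but not those of the list genes, were recomputed under 13 alternatives. Of these, the scaling of marker scores within each library was added after seeing the data. Of 1068 recomputed ratios, 1004 moved by less than their counting interval, 62 moved by more and 2 changed sign among called values. Pde4d in resident macrophages went to -0.14 when barcodes of 2 lineages were kept, and in neutrophils to -0.050 when cells were thinned to 1000 UMIs. Thinned ratios rest on fewer UMIs than the reported ones, so those of small gates are uncertain. The 5 pairs called higher became 10 with a mean over cells, 8 with thinning, 3 with a minimum of 50 UMIs and 9 without a minimum. The 7 called lower became 4 with a mean over cells and 13 without a minimum. Of the 12 called pairs, 2 stayed past 2-fold under all 13 alternatives: Pde4d in Ccr2 macrophages (1.15 to 3.54) and in classical monocytes (1.44 to 2.74). Adrb1 in resident macrophages ranged from -1.62 to -0.09. Thinning to 2000 rather than 1000 UMIs moved 41 of 77 shares of cells. A share of cells with a UMI rises with depth, so this move is no result about the members. No paired analysis was possible because each group had 1 library. Depth limits Adrb1 most, which had a ratio in 1 gate only, and the TTS lymphocyte gates, which held 9 to 43 cells.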

Other observations

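The genes whose levels ran most like those of Adrb1, Crem and Pde4b were sought over 24 points, each a gate in a library, by Pearson correlation of log2(CPM + 10). The points share 2 libraries and differ in depth, so the values are a description. For Adrb1 they were Arc (r = 0.87), Slc11a2 (0.85), Kdelc2 (0.79), Lrp6 (0.77) and Nckap5l (0.76), among 12074 genes. Most Adrb1 points hold few UMIs, and the highest, TTS T cells at 16.6 CPM (2.01 to 59.8), rests on 2 UMIs. The Adrb1 correlations are uncertain for that reason. For Crem they were Gimap6 (0.90), D130062J21Rik (0.90), Bclaf1 (0.90), Ablim1 (0.90) and Rps27 (0.89), among 6505 genes. For Pde4b they included Snap23 (0.89), Cyp4f18 (0.85), Slc2a6 (0.85) and Csnk1e (0.84), among the same 6505 genes. Gimap6 belongs to a family of lymphocyte GTPases.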
